A study of Mus musculus with 6 samples.

Results

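The genes described here are 10 genes of the hypoxia-inducible factor (HIF) pathway, taken by their symbols from the 31641 genes of the deposited table. They are the HIF alpha subunit genes Hif1a and Epas1, the oxygen-sensing and degradation genes Vhl, Egln1 and Egln3, and the hypoxia target genes Vegfa, Bnip3, Ankrd37, Ndrg1 and Car9. All 10 were found, and all 10 had enough counts to be tested among 18019 genes. Messenger RNA was sequenced from E14, a line of mouse embryonic stem cells. The 3 knockdown libraries (KD) are labelled Nat10 KD and with doxycycline, and the 3 control libraries (CON) are labelled Nat10 WT and without doxycycline. Nat10 encodes an RNA acetyltransferase. The drug and the knockdown were always given together and cannot be told apart, and the labels name neither the knockdown construct nor the oxygen level of the cultures.

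HIF is a transcription factor made of an oxygen-regulated alpha subunit and a stable beta subunit. In oxygen, EGLN prolyl hydroxylases modify the alpha subunit, VHL then binds it, and a ubiquitin ligase marks it for destruction. When oxygen is short the alpha subunit escapes this route, enters the nucleus and activates genes of blood vessel growth, glycolysis, acid balance and mitochondrial turnover. This control acts on the protein, so a messenger RNA level of Hif1a or Epas1 does not measure HIF activity.

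Libraries held 33770755 to 39524273 counts in KD and 35304394 to 39450202 in CON. Levels are CPM, a gene's share of its library's counts, scaled by the trimmed mean of M values (TMM), and fold changes are KD over CON from edgeR's quasi-likelihood test with Benjamini-Hochberg adjustment over all genes tested, called at adjusted p under 0.05. Gene positions are those of GENCODE M21 on GRCm38, the assembly that mm10 names, and all 10 genes are protein-coding. Nat10 had 1100, 1164 and 1050 counts in KD, against 4960, 5496 and 4877 counts in CON, and averaged 27.4 ± 1.24 CPM in KD and 149 ± 2.93 CPM in CON (SD, n = 3 each). Nothing in the labels ties the replicates to separate cultures, and p-values may therefore reflect technical spread alone. The comparison called 63% of all genes tested, 32.2% higher and 30.8% lower in KD. KD-3 stood apart from the other KD libraries, with a chi-square per degree of freedom of 10.7 and 14.3 against KD-2 and KD-1, where KD-1 and KD-2 gave 3.00 and the CON pairs 2.69 to 5.03. The 8 embryonic stem cell markers examined all fell, to a summed 2169 to 2258 CPM in KD, against 6162 to 6209 CPM in CON. Their part in the results below was not tested, and in these bulk libraries fewer cells of a type and less RNA per cell cannot be told apart.

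The pathway did not move as a unit. Vegfa, Ndrg1, Epas1 and Hif1a fell, Car9 and Bnip3 rose, and Vhl, Egln1, Egln3 and Ankrd37 did not pass the test. The 6 calls among 10 genes are close to the 63% called over all genes, so the number of calls does not set these genes apart. The same holds for the spread between groups, since KD and CON libraries did not overlap for 7 of the 10 and for 67.1% of all genes. KD lay above CON for 3 of the 10, against 34.4% of all genes, and below it for 4, against 32.8%. The median log2 fold change of the 10 was 0.10, against 0.02 for all genes tested.

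**Figure D1:**
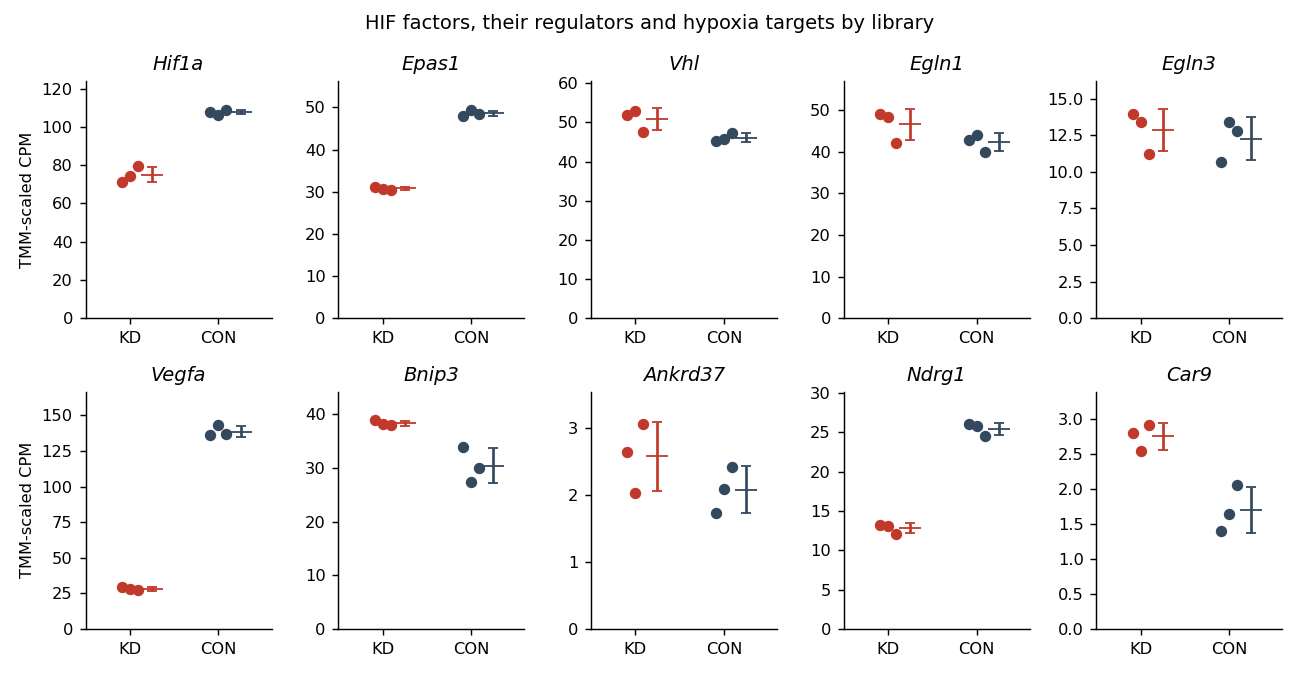
Level of each of the 10 genes in TMM-scaled CPM, with 1 point per library, KD left of CON, and the mean with SD (n = 3 each) beside the points; every axis starts at 0. All KD points lie below all CON points for Hif1a, Epas1, Vegfa and Ndrg1, above them for Vhl, Bnip3 and Car9, and among them for Egln1, Egln3 and Ankrd37.

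Hif1a and Epas1 both fell. Hif1a (chromosome 12, 73901375 to 73947530, forward strand), which encodes the broadly expressed alpha subunit, had 71.4, 74.4 and 79.3 CPM in the KD libraries, numbered 1 to 3, against 108, 106 and 109 CPM in the CON libraries in the same order. Every KD library lay below every CON library, with KD-3 the highest of the KD group. The fall was 1.43-fold, with a log2 fold change of -0.52 (SE 0.05, edgeR adjusted p = 3.33e-07). Epas1 (chromosome 17, 86753700 to 86833410, forward strand), which encodes the alternative alpha subunit found in fewer cell types, had 31.2, 30.7 and 30.5 CPM in KD, against 48.0, 49.3 and 48.4 CPM in CON. The groups were far apart relative to their spread, and the fall was 1.58-fold, with a log2 fold change of -0.66 (SE 0.06, edgeR adjusted p = 9.37e-08).

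Of the pair Hif1a and Epas1, Epas1 was the less abundant in both groups. Per transcript length, in FPKM, which divides counts by gene length and library total, Epas1 made up 31.5, 30.3 and 28.9% of the summed Hif1a and Epas1 level in KD, against 31.9, 32.8 and 32.0% in CON. Every KD share was below every CON share, with a mean difference of -2.01 percentage points (SD 1.32 points in KD and 0.506 in CON). Without KD replicate 3 the difference was -1.33 percentage points. An exact two-sided permutation test gave p = 0.1, the smallest that 3 against 3 libraries allow, and 0.15 after adjustment over the 3 family shares tested.

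The oxygen-sensing and HIF degradation genes among the 10 showed small upward differences that did not pass. Vhl (chromosome 6, 113623959 to 113631633, forward strand), which encodes the subunit that recognises hydroxylated HIF alpha, had 52.0, 52.9 and 47.6 CPM in KD, against 45.2, 45.8 and 47.3 CPM in CON. The groups did not overlap, but KD-3 lay just above CON-3, and the log2 fold change was 0.14 (95% interval 0.01 to 0.27, edgeR adjusted p = 0.0512). Egln1 (chromosome 8, 124908587 to 124949324, reverse strand), the main HIF prolyl hydroxylase gene, had 49.1, 48.3 and 42.1 CPM in KD, against 42.8, 44.1 and 39.8 CPM in CON. Here KD-3 lay inside the CON range, and the log2 fold change was 0.14 (95% interval -0.01 to 0.29, edgeR adjusted p = 0.0956). Without KD replicate 3, both genes passed, Vhl at a log2 fold change of 0.18 (edgeR adjusted p = 0.00421) and Egln1 at 0.20 (edgeR adjusted p = 0.00325). Among the 10, 4 genes were then higher and not 2, against 32.2% of all genes tested without that library. With any other single library left out, neither Vhl nor Egln1 passed. The edgeR adjusted p-values of those fits ran from 0.0880 to 0.230 for Vhl and from 0.104 to 0.353 for Egln1.

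Egln3 (chromosome 12, 54178981 to 54203860, reverse strand) encodes a hydroxylase that is itself induced by HIF, which makes it part of a feedback loop. It had 13.9, 13.4 and 11.3 CPM in KD, against 10.6, 13.4 and 12.8 CPM in CON. The groups overlapped, with a log2 fold change of 0.07 (95% interval -0.17 to 0.31, edgeR adjusted p = 0.606). Its sign turned without CON replicate 1, to a log2 fold change of -0.03. Egln3 was the least abundant of the 3 hydroxylase genes per length, at 9.27, 9.24 and 8.94% of their summed FPKM in KD, against 9, 10.5 and 11% in CON. These shares overlapped between the groups (exact two-sided permutation p = 0.3, also 0.3 after adjustment).

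Vegfa (chromosome 17, 46016993 to 46032369, reverse strand), the vascular endothelial growth factor gene and a classical hypoxia target, changed most of the 10. It had 29.7, 28.2 and 27.1 CPM in KD, against 136, 143 and 137 CPM in CON. Every KD level lay far below every CON level, and the spread within each group was small beside the gap. The fall was 4.89-fold, with a log2 fold change of -2.29 (SE 0.05, edgeR adjusted p = 6.37e-14). It was the 158th most lowered of the 18019 genes tested. In the authors' deposited table, whose log2 fold changes run CON over KD, Vegfa stood at 2.30 and was the only gene of the 10 in a changed class. That class did not follow the adjusted p alone, since in the authors' deposited table Hif1a, Epas1, Ndrg1, Bnip3 and Car9 also had adjusted p-values of at most 0.0289.

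Ndrg1 (chromosome 15, 66929318 to 66969640, reverse strand), a stress-responsive gene induced by hypoxia and by metal depletion, fell as well. It had 13.3, 13.1 and 12 CPM in KD, against 26, 25.7 and 24.5 CPM in CON. The groups were well separated, and the fall was 1.98-fold, with a log2 fold change of -0.99 (SE 0.08, edgeR adjusted p = 2.77e-08).

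Bnip3 and Car9 went the other way. Bnip3 (chromosome 7, 138890836 to 138909519, reverse strand), a mitochondrial outer membrane protein gene that acts in the removal of mitochondria, had 38.9, 38.3 and 38.0 CPM in KD, against 33.9, 27.4 and 29.9 CPM in CON. The KD libraries were tightly grouped and all above the more scattered CON libraries, and the rise was 1.26-fold, with a log2 fold change of 0.34 (SE 0.08, edgeR adjusted p = 0.00112). Car9 (chromosome 4, 43506966 to 43513729, forward strand), which encodes a cell-surface carbonic anhydrase that acidifies the outside of the cell, rested on few reads, with 118, 109 and 107 counts in KD and 48, 60 and 67 counts in CON. In CPM these were 2.81, 2.54 and 2.92 in KD, against 1.41, 1.65 and 2.06 in CON. Every KD library lay above every CON library, and the rise was 1.62-fold, with a log2 fold change of 0.70 (SE 0.20, edgeR adjusted p = 0.00604).

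Ankrd37 (chromosome 8, 45996902 to 46005707, reverse strand), an ankyrin-repeat protein gene known as a HIF target, was also low. It had 111, 87 and 112 counts in KD and 59, 76 and 79 counts in CON, or 2.65, 2.03 and 3.06 CPM in KD against 1.73, 2.09 and 2.43 CPM in CON. KD-2 lay inside the CON range. The log2 fold change was 0.31 with a 95% interval of -0.14 to 0.75 (edgeR adjusted p = 0.217), an interval that holds both no change and the value found for Car9.

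Because the strand setting of the counting is not stated, reads in exons that lie over each other on opposite strands could belong to either gene. Ankrd37 shares 349 exonic bases with Lrp2bp and 57 with Ufsp2, Car9 shares 214 with Gm12454, and Hif1a shares 330 with Gm15283 (GENCODE M21). Bnip3 shares 504 with Gm45507 and Ndrg1 shares 419 with Gm17035. Hif1a also shares 148 with Gm49321 on the same strand, where reads could belong to either gene under any strand setting. Gm45507, Gm17035 and Gm49321 were not found by identifier in the deposited table. Gm12454 averaged 19 counts over the 6 libraries, Lrp2bp 19.3 and Gm15283 36.8, while Ufsp2 averaged 1029.

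The start regions of the target genes that moved in opposite directions are shown to set matches to the core of the hypoxia response element beside the values. That core, to which HIF binds, is ACGTG or GCGTG. RefSeq windows from 250 bases before to 50 bases after the start (GRCm38.p6) were found for 8 of the 10 genes, in 9 windows, with none for Epas1 and Ndrg1. Letters that match ACGTG or GCGTG on either strand are in capitals. The windows of Bnip3 at chr7:138909457-138909756 (reverse strand), of Car9 at chr4:43506776-43507075 (forward strand) and of Vegfa at chr17:46032328-46032627 (reverse strand), each 5′ to 3′ on the gene's strand, read as follows.
Bnip3: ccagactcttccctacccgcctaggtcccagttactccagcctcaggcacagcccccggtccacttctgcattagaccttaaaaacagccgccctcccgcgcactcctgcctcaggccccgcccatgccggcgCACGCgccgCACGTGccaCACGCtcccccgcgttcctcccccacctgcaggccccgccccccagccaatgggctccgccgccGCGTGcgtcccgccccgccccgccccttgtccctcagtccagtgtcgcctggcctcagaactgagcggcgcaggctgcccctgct
Car9: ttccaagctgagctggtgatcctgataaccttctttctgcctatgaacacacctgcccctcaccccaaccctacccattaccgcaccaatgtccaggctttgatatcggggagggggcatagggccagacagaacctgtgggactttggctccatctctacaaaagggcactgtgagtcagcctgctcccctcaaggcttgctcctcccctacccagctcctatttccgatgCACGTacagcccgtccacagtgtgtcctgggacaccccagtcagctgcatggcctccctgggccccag
Vegfa: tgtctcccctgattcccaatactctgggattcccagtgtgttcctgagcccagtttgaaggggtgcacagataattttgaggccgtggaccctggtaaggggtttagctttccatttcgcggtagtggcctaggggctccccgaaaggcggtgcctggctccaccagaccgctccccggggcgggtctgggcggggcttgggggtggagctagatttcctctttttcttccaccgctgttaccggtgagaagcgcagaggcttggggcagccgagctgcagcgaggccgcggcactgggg

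Bnip3, which rose, held 5 matches, of which ACGTG was read on both strands of the same CACGTG letters 108 bases before the start. Car9, which also rose, held a single ACGTG on the reverse strand 18 bases before the start. Vegfa, which fell, held no match in the window shown, while a second Vegfa window, at a start inside the gene, held 2. Hif1a, which also fell, had 3 matches. The windows of Hif1a (chr12:73907617-73907916) and Ankrd37 (chr8:45999801-46000100) also lay wholly inside the gene spans given above. Among the genes not called, Ankrd37 had 4 matches, Egln1 had 2, Egln3 had 1 and Vhl had none. Matches thus stood in windows of genes that rose, fell or were not called, and a link to direction was not tested. Letters outside the windows were not searched, so a window without a match does not show that the gene lacks one. Either motif stood in 7 of the 9 windows (77.8%) and in 43.8% of all 32851 windows in the collection, and ACGTG alone in the same number of the 9 and in 19.6% of all. In the other HIF machinery, the glucose and glycolysis targets and the other hypoxia targets, 63.6, 75 and 82.8% of windows held either motif. ACGTG stood in 18.2, 42.9 and 41.4% of these windows, in the same order. The 9 windows were also rich in G and C, at a median of 62.7% against 52.7% for all windows. The medians of the other lists were 66.7, 62.8 and 66.3%, in the order above. A match is a description of these letters and not of binding.

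**Figure D2:**
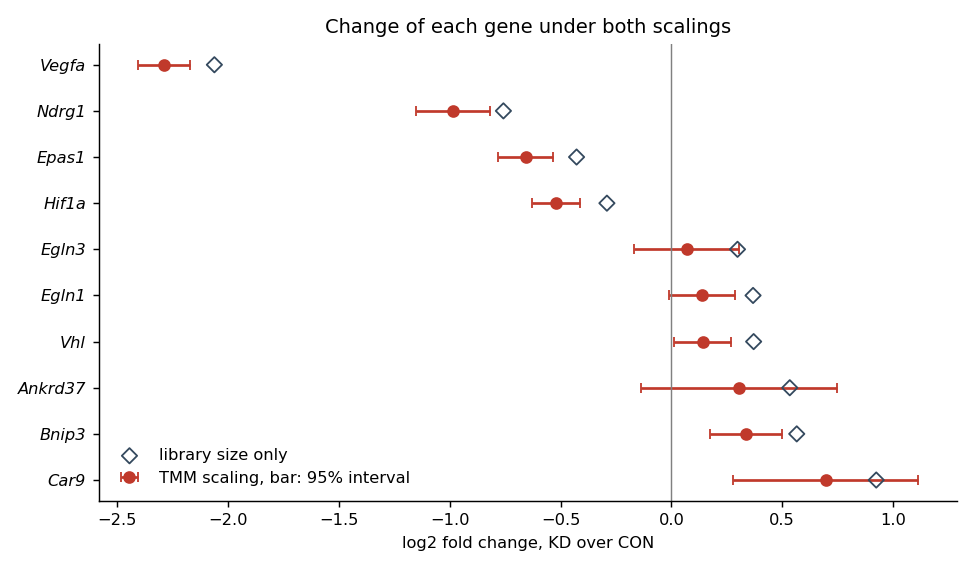
Log2 fold change (KD over CON) of the 10 genes, ordered from the most lowered, under TMM scaling (filled points, bars are 95% intervals) and with libraries scaled by size only (open diamonds). The diamonds lie to the right of the points by about the same amount for every gene, and no gene crosses 0.

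How the libraries are scaled decides the small differences. With libraries scaled by size only, the median of all genes shifted by 0.23 on the log2 scale, and 70.1% of all calls were higher in KD, where TMM gave 51.1%. Under that scaling all 10 genes passed, against 65.6% of all genes. Of them 6 were higher, against 46% of all genes, and 4 were lower, against 19.6%. Vhl stood at 0.37, Egln1 at 0.37, Egln3 at 0.30 and Ankrd37 at 0.53, all called. A change of scaling moves every gene by about the same amount, so these are the differences above plus that shift. Which scaling is nearer the truth was not tested. Vegfa, Ndrg1, Epas1 and Hif1a stayed lower at -2.06, -0.76, -0.43 and -0.29, and Bnip3 and Car9 stayed higher at 0.57 and 0.92.

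Levels of different genes were compared per length, in FPKM, which the authors scaled by library size, so they serve here for the order within a group. In KD the order was Vhl, Bnip3, Egln1, Hif1a, Vegfa, Epas1, Egln3, Ndrg1, Ankrd37 and Car9, and in CON it was Vegfa, Hif1a, Vhl, Bnip3, Egln1, Epas1, Egln3, Ndrg1, Ankrd37 and Car9. Vegfa thus held the fifth place in KD and the first in CON, at 7.16 ± 0.321 FPKM in KD and 29.9 ± 0.776 FPKM in CON (SD, n = 3 each). Epas1, Egln3, Ndrg1, Ankrd37 and Car9 kept the last places in both groups. Neighbours whose libraries overlapped, and whose order is therefore not resolved, were Vhl and Bnip3, Egln1 and Hif1a, and Ndrg1 and Ankrd37 in KD, and Bnip3 and Egln1 in CON.

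**Figure D3:**
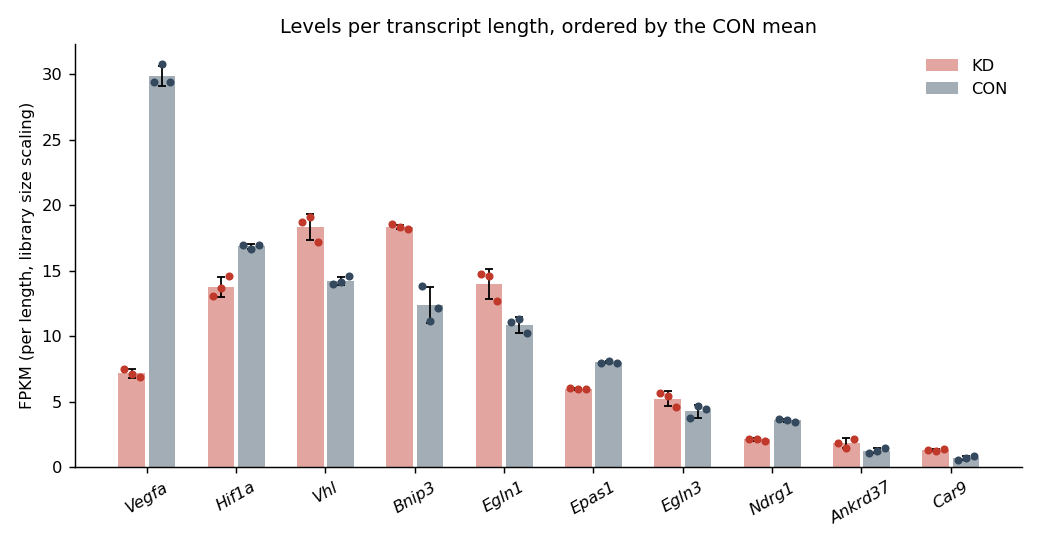
FPKM of the 10 genes, ordered by the CON mean, with KD bars left of CON bars (means), SD as error bars (n = 3 each) and 1 point per library. Vegfa is the highest CON bar at 29.9 FPKM and stands at 7.16 FPKM in KD, below Vhl, Bnip3, Egln1 and Hif1a.

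Bnip3 and its close relative Bnip3l, which both act in mitochondrial removal, moved in opposite directions. Bnip3l fell 1.76-fold, averaging 68.6 ± 2.38 CPM in KD and 121 ± 3.11 CPM in CON (SD, n = 3 each, edgeR adjusted p = 1.38e-09). Per length, Bnip3 made up 49.7, 49.1 and 47.5% of the pair in KD, against 31.7, 28.3 and 29.8% in CON. The pair was thus near an even split in every KD library and weighted to Bnip3l in every CON library. The difference of 18.8 percentage points had an exact two-sided permutation p = 0.1, the smallest the design allows, and 0.15 after adjustment over the 3 shares.

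**Figure D4:**
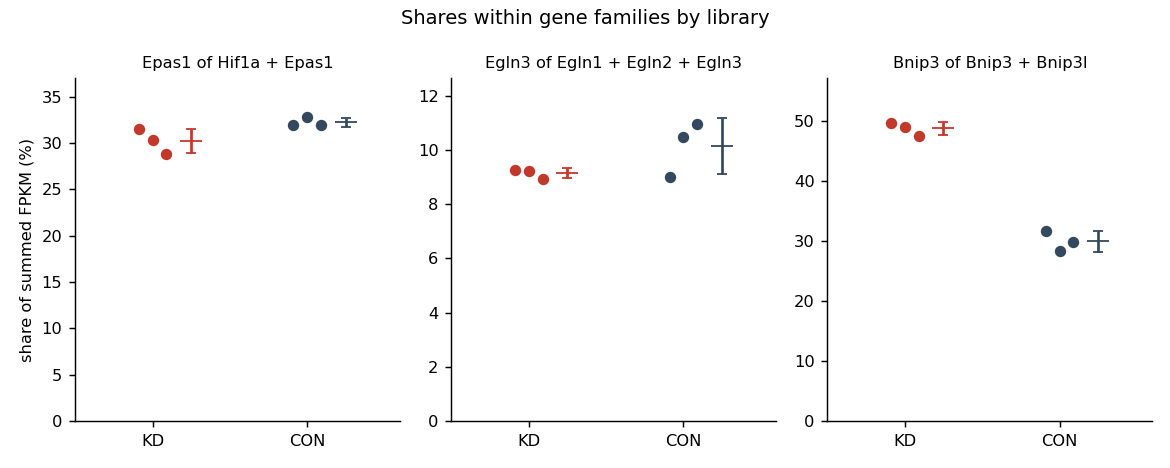
Share of the summed FPKM held by Epas1, Egln3 and Bnip3 within their families, in percent, with 1 point per library, KD left of CON, and the mean with SD (n = 3 each) beside the points. KD and CON are apart by 18.8 percentage points for Bnip3, differ by -2.01 for Epas1 and overlap for Egln3.

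The other HIF machinery moved in both directions, and all 12 genes examined passed, 5 rising and 7 falling, against 63% of all genes called, 32.2% higher and 30.8% lower. Their median change was -0.21 on the log2 scale under TMM. The beta subunit genes moved apart. Arnt fell 1.41-fold, averaging 110 ± 4.19 CPM in KD and 156 ± 3.25 CPM in CON, and its relative Arnt2 rose 1.81-fold, averaging 38.9 ± 1 CPM in KD and 21.5 ± 1.31 CPM in CON (SD, n = 3 each, edgeR adjusted p = 2.05e-07 and 3.29e-08). Hif3a, an alpha subunit gene that also gives rise to inhibitory forms, rose 1.47-fold. Both hydroxylase genes outside the 10 rose, Egln2 by 1.21-fold and Hif1an, which encodes the asparagine hydroxylase that blocks coactivator binding, by 1.26-fold.

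The coactivator genes Ep300 and Crebbp fell 1.40-fold and 1.34-fold, and Cited2, whose protein competes with HIF alpha for them, fell 1.22-fold. Among the partners of VHL in its ubiquitin ligase, Rbx1 rose 1.24-fold, while Cul2 fell 1.18-fold, Eloc 1.23-fold and Elob 1.13-fold. Cul2, Eloc and Cited2 were not called with libraries scaled by size only, and Elob turned there to a difference of 0.05 on the log2 scale, also not called. Only 3 of the 12 genes were then called lower, Arnt, Ep300 and Crebbp, against 19.6% of all genes under that scaling.

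Glucose uptake and glycolysis genes known as HIF targets split, with 12 of 20 lower, 7 higher and 1 not called under TMM, where 30.8% of all genes were lower and 32.2% higher. Under scaling by library size alone, 8 were lower and 9 higher, against 19.6 and 46% of all genes. Their median log2 fold change was -0.22 under TMM. The phosphofructokinase gene Pfkp fell 2.66-fold, averaging 167 ± 7.76 CPM in KD and 444 ± 0.751 CPM in CON, and the hexokinase gene Hk2 fell 2.06-fold (SD, n = 3 each, edgeR adjusted p = 1.02e-12 and 8.88e-12). Pfkp shares 748 exonic bases with Pitrm1 on the opposite strand (GENCODE M21). Pitrm1 averaged 6111 counts over the 6 libraries, so reads there could belong to either gene. The glucose transporter gene Slc2a3 fell 1.67-fold, averaging 2437 ± 30.9 CPM in KD and 4080 ± 62.6 CPM in CON. Pdk1, which restrains pyruvate entry into the citrate cycle, fell 1.55-fold, Pgk1 1.53-fold and Aldoa 1.47-fold. Paralogs of Hk2, Pfkp and Aldoa moved the other way, with Hk1 rising 1.49-fold, Pfkl 1.44-fold and Aldoc 1.83-fold. Pfkfb4, which sets the level of a glycolysis activator, rose 1.95-fold, the lactate exporter gene Slc16a3 1.66-fold and the glycogen-branching enzyme gene Gbe1 2.32-fold.

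Of 27 other hypoxia targets, 26 were tested, and 12 rose, 9 fell and 5 were not called, against 32.2% of all genes higher and 30.8% lower. Their median log2 fold change was 0.21 under TMM. With libraries scaled by size only, 16 were higher and 7 lower, against 46 and 19.6% of all genes. The 4 collagen-modifying hydroxylase genes of the list rose, Plod1 by 1.86-fold, P4ha2 by 1.58-fold, P4ha1 by 1.53-fold and Plod2 by 1.5-fold. Car12, a relative of Car9, rose 2.47-fold, averaging 11.8 ± 1.30 CPM in KD and 4.75 ± 0.533 CPM in CON (SD, n = 3 each, edgeR adjusted p = 2.15e-07), and the transferrin receptor gene Tfrc rose 1.49-fold. The secreted glycoprotein gene Stc2 fell 8.07-fold, averaging 7.25 ± 0.135 CPM in KD and 58.5 ± 1.22 CPM in CON (edgeR adjusted p = 4.81e-14). Flt1, which encodes a receptor for VEGFA, fell 2.5-fold with its ligand. The histone demethylase gene Kdm3a fell 1.80-fold and Ddit4, an inhibitor of mTORC activity, fell 1.71-fold. Epo had too few counts to be tested.

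Of the fibroblast and feeder markers, 8 of 10 were in the table, at a summed 60.8 to 66.5 CPM in KD and 36.0 to 40.5 CPM in CON. Of the 5 tested, 3 rose and 2 fell, against 32.2% of all genes higher and 30.8% lower. Col1a2 rose 10.8-fold, averaging 16.6 ± 1.68 CPM in KD and 1.53 ± 0.234 CPM in CON, Pdgfrb rose 2.46-fold, averaging 27.2 ± 0.961 CPM in KD and 11.1 ± 0.514 CPM in CON, and Col1a1 rose 1.77-fold (SD, n = 3 each). Thy1 fell 2-fold and Acta2 1.32-fold. Col3a1, Postn and Fap, which were not tested, averaged at most 0.217 CPM in KD and at most 0.0779 CPM in CON. Lum and Dcn were not analysed here. Primitive endoderm markers summed to 45.3 to 46.9 CPM in KD and 46.7 to 52.0 CPM in CON. Of these 8 markers, 2 were higher, 2 lower and 4 not called, against the same shares of all genes. The part of either list in the changes of the HIF pathway genes was not tested.

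**Figure D5:**
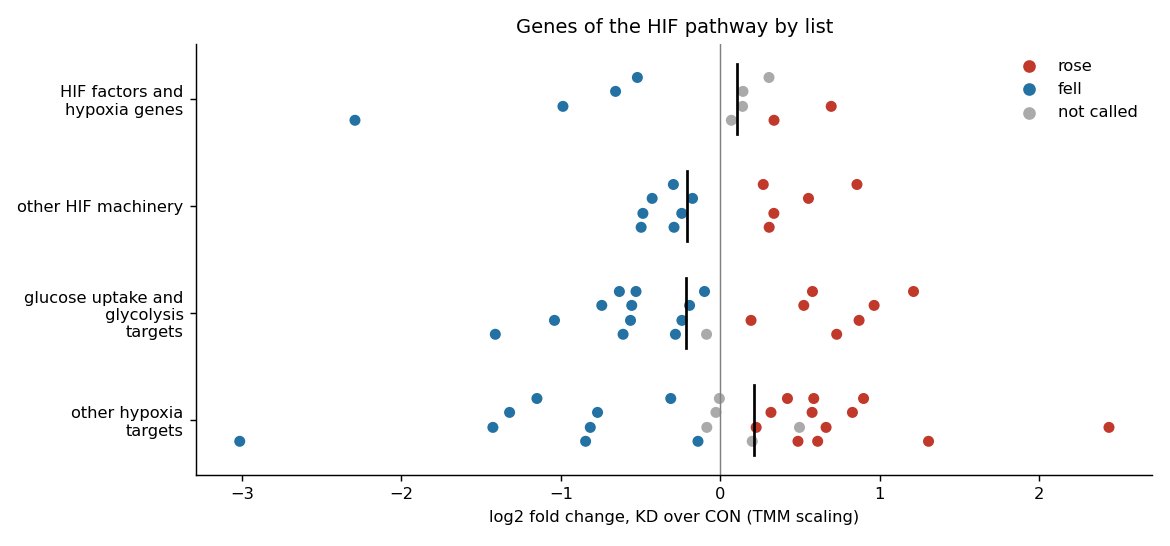
Log2 fold change (KD over CON, TMM scaling) of every tested gene in the 10 HIF pathway genes and in 3 further lists of the pathway, with 1 point per gene coloured by its call and a black line at each list's median. Each list holds genes on both sides of 0, and the list medians run from -0.22 to 0.21.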

How the data were processed

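Poly(A)-selected RNA of 6 libraries was sequenced on an Illumina HiSeq, per the labels' design text. FastQC 0.11.9, STAR 2.5.3a, featureCounts and build mm10 are named in the submitters' processing notes. Annotation release, strand setting and handling of multi-mapping reads were not stated.

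The deposited table holds raw counts per gene, per the file headers. It also holds FPKM values made by the authors. In all 12898 genes with at least 50 counts in each library, the implied gene length was equal across libraries within 1%. That length was worked out from counts, FPKM and library total, and was not compared with annotated lengths. The authors' deposited log2 fold change, which runs CON over KD, and adjusted p-value come from a test that is not stated. Dates had replaced 26 symbols, restored by identifier.

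Between 70.0 and 71.7% of counts from 1 to 20 were even, so mates may have been counted separately and low counts may stand for fewer fragments. Before TMM scaling, 1 count equalled 0.0253 to 0.0296 CPM.

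KD was tested against CON with edgeR 4.0.16 in R 4.3.3 (filterByExpr, TMM, robust quasi-likelihood F-test, p adjusted over all 18019 genes, threshold 0.05). The procedure was first tested on simulated data of 17684 genes, with 100 changed 2-fold and 100 changed 1.5-fold. Of these, 96% and 79% were recovered. Far fewer genes changed there than were called here, so the simulation does not test how scaling acts on these data. Family shares used FPKM and exact two-sided permutation tests in SciPy 1.17.1. Positions came from GENCODE M21. Alternatives were other scalings, filters, DESeq2 1.42.0, a replicate block, halved counts and leaving out each library.

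The 10 genes, the lists and the tests were chosen with earlier results of these data known. The text names the 10 genes, Nat10, the other HIF machinery, and up to 6 genes per direction of each target list by smallest p. A gene that this rule takes is not reported here. The fibroblast markers named by direction were chosen after their values were seen.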

Additional observations from a re-analysis of the deposited data

How the results depend on the processing

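Of 47 named genes, 39 kept their direction and their side of the threshold under all 13 alternatives, among them Hif1a, Epas1, Vegfa, Ndrg1, Bnip3 and Car9. The target-list genes among the 47 were named for their small p-values, so that they kept their calls was nearly fixed in advance. The genes that did not keep both were Vhl, Egln1, Egln3, Ankrd37, Elob, Eloc, Cul2 and Cited2, none of them named by that rule. With libraries scaled by size only, 10 of the 10 HIF pathway genes were called, against 65.6% of all genes, and 6 were higher in KD, against 46%. Under that scaling 3535 of all genes (19.6%) were lower, and 3 of the 12 other HIF machinery genes were lower. Elob turned there to a log2 fold change of 0.0548. In edgeR, Vhl passed with at least 1 CPM in 3 libraries (adjusted p = 0.0477) and with counts divided by 2 (adjusted p = 0.0457). Across the fits without each replicate in turn, the number of the 10 genes called higher ranged from 2 to 4, the 4 being without KD replicate 3, and the log2 fold change of Egln3 ranged from -0.0341 to 0.148. Elob lost its call without CON replicate 3 (edgeR adjusted p = 0.0847). The causes were not tested. Same-numbered libraries did not deviate together, with correlations of -0.06, 0.02 and -0.04 for numbers 1 to 3, and no KD library correlated best with its own number. With the replicate block, 10906 genes were called, and no named gene changed its call. The family shares kept their direction with counts not divided by length, with 1 FPKM added and without each replicate, where the differences ranged from -2.65 to -1.33 percentage points for Epas1, from -1.58 to -0.599 for Egln3 and from 18.0 to 19.7 for Bnip3. Depth limits Car9 and Ankrd37, whose libraries held 48 to 118 counts.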
